A study of Mus musculus with 31 samples.

Results

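Reprogramming of mouse embryonic fibroblasts with and without c-Myc was compared on 11 of the 31 expression arrays of the series. In the 4F cultures c-Myc was delivered by retrovirus on day 0 together with Oct4, Sox2 and Klf4. In the 3F cultures it was left out and the other 3 were delivered on the same day. The arrays were chosen by their labels alone. There were 7 arrays of 4F, with replicates 1 and 2 on each of days 3, 5 and 8 and a single array on day 12, and 4 arrays of 3F, with a single array on each of days 3, 5, 8 and 12. Of the 28853 rows of the deposited table, 21789 carried 1 gene symbol, and these gave 19938 genes. All cultures were mixed fibroblasts kept in DMEM with serum. Cultures infected with a GFP retrovirus and harvested on the same days, and uninfected fibroblasts of day 0, give reference levels. One label field of the 3F arrays says 4 factors while naming only 3, and the other fields say 3, which was followed here.

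c-Myc is a transcription factor that pairs with Max and binds DNA at the E-box, a short palindrome. It is known for raising genes of ribosome production, translation, nucleotide synthesis, mitochondria and cell division, and for lowering genes of growth arrest, adhesion and matrix. Fibroblasts can be reprogrammed without it, more slowly and in smaller number. Oct4 (gene symbol Pou5f1), Sox2 and Klf4 are the factors that both kinds of cells received.

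The design set a limit on what the arrays can separate. All 4 arrays of 3F carry no replicate number and were labelled from 300 ng of RNA. The 4F arrays of days 3, 5 and 8 are numbered, with replicate 1 labelled from 120 ng and replicate 2 from 300 ng, and the 4F array of day 12 carries no number. Over days 3 to 8 the arm and the numbered or unnumbered set of arrays therefore cannot be told apart. On day 12 both arms lie in the unnumbered set, but each has 1 array, so a test of that day borrows its spread from other groups. Replicate 4F arrays correlated across genes with r of 0.988, 0.99 and 0.974 on days 3, 5 and 8. The 3F array correlated with 4F replicate 1 at 0.975, 0.962 and 0.945, with 4F replicate 2 at 0.988, 0.977 and 0.963, and with the 4F array of day 12 at 0.975. Genes are not independent replicates, so these values only describe the arrays. On a log2 scale that runs from 4.268 to 14.334, Vim, an intermediate filament gene of fibroblasts, read 12.48 to 13.35 over the 11 arrays and Col1a1, a collagen gene, 10.74 to 12.57. Some listed markers of macrophages (Adgre1, 4.78 to 5.03, and Ptprc, 4.84 to 5.14), germ cells (Ddx4, 4.51 to 4.84) and fat cells (Adipoq, 4.57 to 4.76) lay near the bottom of the scale. Single markers differed on day 12, with Cd68 (by 2.24), Mael (0.98) and Cd36 (2.81) higher in 4F and the fat cell marker Lpl lower (-1.22). As lists, 10 of 17 macrophage markers (58.8%) were higher in 4F that day, near the 49.6% of all genes, with a median of 0.01. Of germ cell markers 12 of 15 were higher (median 0.14), and of fat cell markers 7 of 10 (median 0.13). Values are log2 signals of whole cultures, in which fewer cells of a type and less RNA per cell cannot be told apart.

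The row of Myc was lower on the 4F arrays than on the 3F arrays, against the labels' direction. Its log2 signal in 3F was 9.04, 8.26, 9.37 and 7.95 on days 3, 5, 8 and 12. In 4F replicates 1 and 2 it was 6.81 and 8.12 on day 3, 6.37 and 7.10 on day 5, and 6.81 and 8.09 on day 8, and the day 12 array read 7.52. Every 4F array lay below the 3F array of its day. The fitted difference was -1.43 (SE 0.36, limma adjusted p = 0.046) over all 4 days and -1.67 (SE 0.37, adjusted p = 0.024) over days 3 to 8. GFP-infected cells averaged 8.66, 7.70, 8.44 and 6.58 on the same days, and day 0 cells 9.64. On days 3 to 8 the 3F values thus lay above and the 4F values below the GFP averages, and on day 12 both lay above. No source used here gives which part of the Myc transcript the row measures, and the row was not raised on the arrays labelled with viral c-Myc. It therefore does not check the labels, and 4F and 3F below mean the arrays labelled 4F and 3F.

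The other 3 delivered factors gave no call over all days. Pou5f1 rose along both series, from 6.36 on day 3 to 10.2 on day 12 in 3F, and from 6.05 and 6.38 to 9.84 in 4F. Its 4F minus 3F difference was 1.26 on day 5, 1.14 on day 8 and -0.37 on day 12 (adjusted p = 0.40 over all days). Sox2 stood at 6.27 in 3F and at 6.79 and 8.21 in 4F on day 8, and at 9.20 and 9.48 on day 12 (adjusted p = 0.46). Klf4 differed by -0.69 over all days (SE 0.21, adjusted p = 0.087), and in the daily fits it was called on day 8, at -1.35 (adjusted p = 0.016). Among the 12 measured Myc relatives and partners, the antagonists Mxi1 (0.52, SE 0.12, adjusted p = 0.034) and Mga (0.33, SE 0.08, adjusted p = 0.049) were higher in 4F over all days. The dimer partner Max differed by -0.13 (SE 0.15) and the paralog Mycn by 0.22 (SE 0.31), and neither was called. Mycn reached 8.07 on the 4F replicate 2 array of day 8 against 6.42 on replicate 1, and 7.56 and 7.36 in 3F and 4F on day 12.

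**Figure D1:**
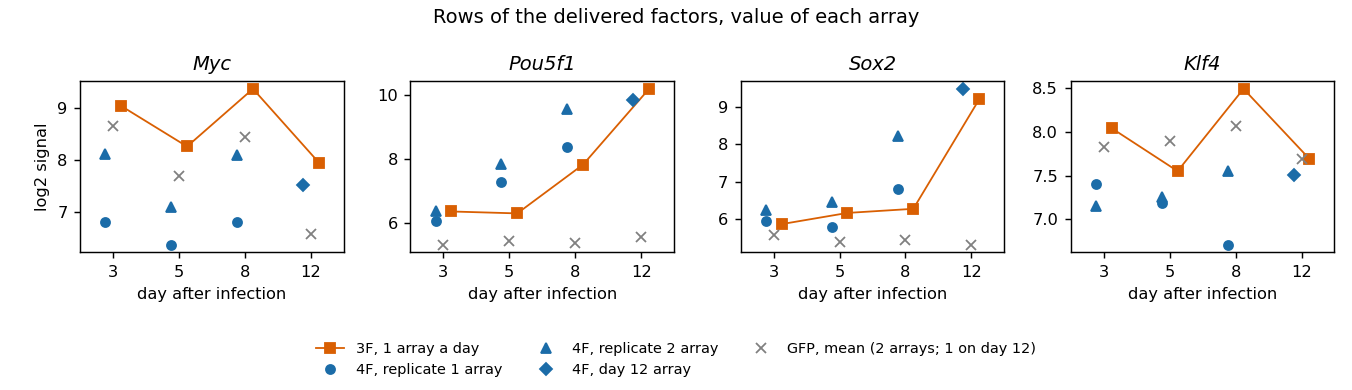
Log2 signal (vertical axis) of the rows of Myc, Pou5f1, Sox2 and Klf4 by day after infection (horizontal axis), with 1 symbol for each 3F or 4F array and crosses for the mean of the GFP arrays (1 array on day 12). All 4F symbols of Myc lie below the 3F symbol of their day, while Pou5f1 and Sox2 climb in both arms and lie close together on day 12, at 9.84 and 10.2 and at 9.48 and 9.20.

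With day as a term, 1840 of 19938 genes (9.23%) differed between 4F and 3F over all 4 days at a limma adjusted p under 0.05, and these are the genes named as called, higher or lower below. Of these, 683 (3.43% of all genes) were higher and 1157 (5.8%) lower in 4F. After quantile normalization the split was 891 higher and 969 lower. Over days 3, 5 and 8 alone, 3171 genes (15.9%) were called, 1494 higher (7.49%) and 1677 lower (8.41%), and 1674 genes were called in both fits. After quantile normalization the split over days 3 to 8 was 1755 higher and 1517 lower. With columns centred on the median it was 1627 and 1528, so which side was larger on these days depended on the scaling. In these fits the days of 3F stand in for its missing replicates, so the p-values measure a spread that also holds changes of the difference between days. They do not measure how repeated 3F infections vary, because the 3F arrays carry no replicate number and their days may share 1 infection. Same-numbered 4F arrays also deviate together across days, which both fits leave out. With the array set as a random block, an alternative added after the data were seen, 579 genes were called over all days (165 higher and 414 lower) and 2012 over days 3 to 8 (951 and 1061). Of the lists below, it called 44 nucleolar genes in place of 46, 22 replication genes in place of 30, 24 matrix genes in place of 27 and 15 lysosomal genes in place of 21 over days 3 to 8. Over all days it called 4 nucleolar genes in place of 14, 4 ribosomal protein genes in place of 13, 10 matrix genes in place of 26, 3 inflammatory genes in place of 12 and 4 lysosomal genes in place of 11. Nothing says that replicates 1 and 2 came from separate cultures beyond the word biological in their titles. The counts leaned on single arrays. Over all days 53 genes were called without the 3F array of day 5, 246 without that of day 8, and 872 without that of day 3. Leaving out replicate 1 of 4F on day 3 or day 5 left 998 and 883, and leaving out replicate 2 on day 5 left 1123. Over days 3 to 8 the counts were 434 without the 3F array of day 5, 996 without that of day 8, and 1965 without 4F replicate 1 of day 5. Without all replicate 1 arrays 0 genes were called over all days (3741 at an unadjusted p under 0.05) and 999 over days 3 to 8, and without all replicate 2 arrays 430 and 3760. A further fit took the set of arrays (replicate 1, replicate 2 or unnumbered) as a term, a replicate block that leaves day 12 as the only day on which the arms are compared. In it 62 genes were called, 23 higher and 39 lower.

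The 15 largest differences toward 4F, among called genes with 1 sign on all 4 days, ran from 1.17 to 1.97. Tfrc, the transferrin receptor that brings iron into the cell, read 7.82, 7.48, 7.0 and 9.05 in 3F on days 3, 5, 8 and 12. In 4F it read 9.68 and 9.67 on day 3, 9.81 and 8.93 on day 5, 10.05 and 9.90 on day 8, and 9.73 on day 12. The arms did not overlap on days 3 to 8, and the gap was narrow on day 12 (all days 1.93, SE 0.31, adjusted p = 0.014). Bex1, a small adaptor protein best known from neurons, had the largest difference of the higher genes that kept their sign (1.97, SE 0.27, adjusted p = 0.0095). It read 6.51, 6.55, 7.27 and 8.95 in 3F, and 9.19 and 7.98, 9.38 and 8.46, 8.84 and 9.23, and 10.51 in 4F. Ccnb1ip1, a ubiquitin ligase of cyclin B, stayed between 5.06 and 6.12 in 3F and between 6.55 and 7.87 in 4F (1.74, SE 0.29). Next came the membrane transporter Slc35f2 (1.57), the phosphodiesterase Smpdl3b (1.48), Aldoc of glycolysis (1.44), the kinase Rps6ka6 (1.29), Pdk1 (1.28), Mpp6 (1.27), the deoxycytidylate deaminase Dctd (1.25), Nt5dc2 (1.24) and Fam185a (1.17). The small nucleolar RNAs Snord33 (1.45) and Snord22 (1.22), and Taf1d (1.23), a factor of RNA polymerase I whose gene also hosts small nucleolar RNAs, completed these 15. Taf1d has 9 rows, and all 9 were higher in 4F, by 0.58 to 1.23.

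The 15 largest differences toward 3F ran from -2.48 to -1.97. Tnc, the matrix glycoprotein tenascin-C, read 11.20, 10.72, 10.86 and 9.20 in 3F. In 4F it read 8.98 and 9.99 on day 3, 8.14 and 7.97 on day 5, 7.77 and 7.99 on day 8, and 7.77 on day 12 (-2.25, SE 0.28, adjusted p = 0.0088). Every 4F value after day 3 lay more than 1 log2 unit below every 3F value. Igfbp3, a carrier of insulin-like growth factors, was already apart on day 3, at 11.22 in 3F against 8.56 and 9.19 in 4F. It stayed apart, at 10.76 against 9.35 on day 12 (-2.0, SE 0.17, adjusted p = 0.0061). Cxcl5, a chemokine for neutrophils, had the largest of these differences (-2.48, SE 0.50, adjusted p = 0.023), and widened from -0.53 on day 3 to -3.84 on day 8 and -3.51 on day 12. Mfap5, a component of microfibrils, differed by -2.31 (SE 0.31, adjusted p = 0.0093), from -1.52 on day 3 to -3.40 on day 8. The others were Ccn3 (-2.39), Sostdc1 (-2.30), the receptor Gpr50 (-2.18), Prss23 (-2.14), Col28a1 (-2.09), the matrix protease Adamts5 (-2.09), the integrin Itga4 (-2.07), Tnfrsf11b (-2.07), which encodes the decoy receptor osteoprotegerin, Csgalnact1 (-2.01), the protease inhibitor Timp3 (-1.97) and the proteoglycan Lum (-1.97).

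**Figure D2:**
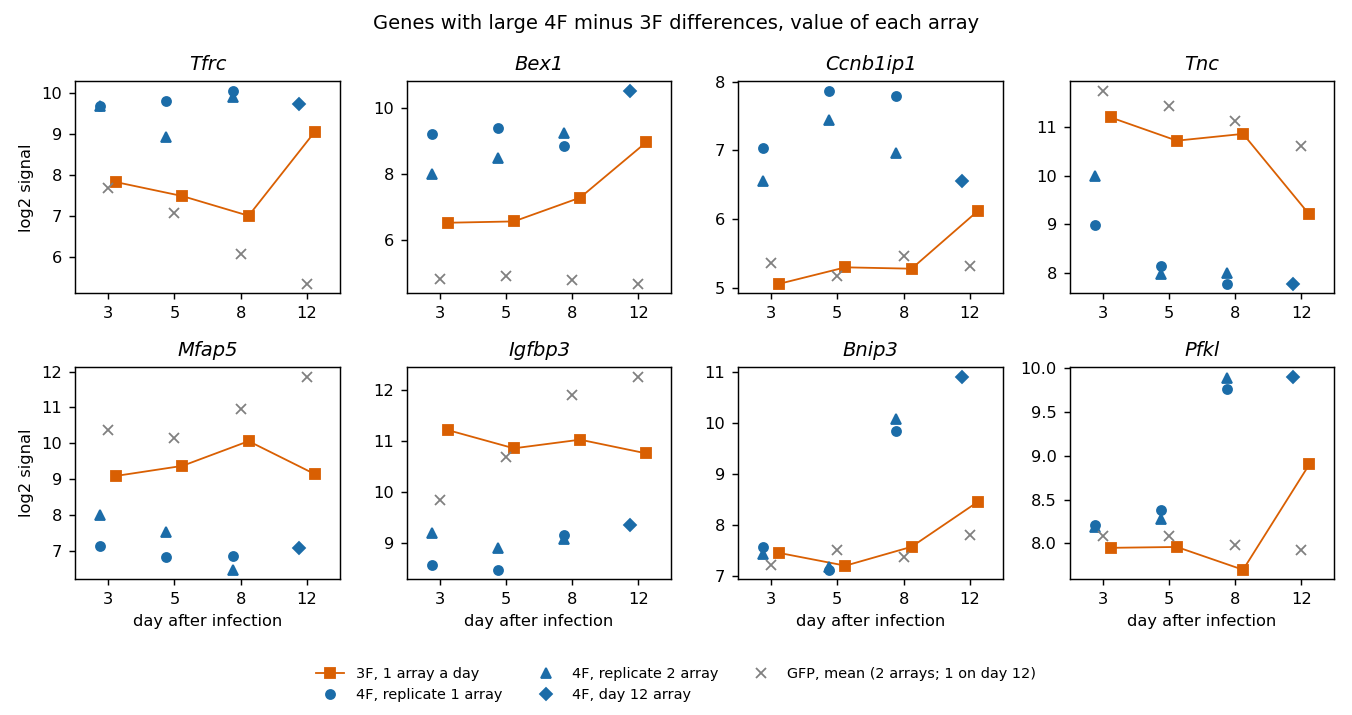
Log2 signal (vertical axes) of 8 genes by day after infection (horizontal axes), with 1 symbol for each 3F or 4F array and crosses for the mean of the GFP arrays (1 array on day 12). Tfrc, Bex1 and Ccnb1ip1 lie higher and Tnc, Mfap5 and Igfbp3 lower in 4F on every day, while Bnip3 and Pfkl part from 3F between days 5 and 8.

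Genes of ribosome assembly in the nucleolus were higher in 4F on days 3 to 8 and not on day 12. Of 51 measured genes of this list, 46 were higher in 4F over days 3 to 8 and 0 lower, where 7.49% of all genes were higher. The median difference was 0.85, against 0.01 over all genes. By role, 8 of 8 genes that build or guide small nucleolar ribonucleoproteins were higher (median 1.09), 32 of 36 that process and assemble ribosomal RNA (median 0.79), and 6 of 7 of RNA polymerase I (median 0.82). The 5 genes not called were Utp20, Gnl3l, Pno1, Noc3l and Rrn3. The count was lowest, 24, without the 3F array of day 5. The medians were 0.95 against the replicate 1 arrays and 0.79 against the replicate 2 arrays. Over all 4 days 14 of the 51 were higher, against 3.43% of all genes, and 1 of the 51 when the 3F array of day 5 was left out. Among the 14 were Taf1d, Nhp2 (0.90, SE 0.17, adjusted p = 0.02), a protein of box H/ACA particles, Mrto4 (0.89, SE 0.20, adjusted p = 0.031), a factor of the large subunit, and Mybbp1a (0.88, SE 0.21, adjusted p = 0.04), a nucleolar partner of Myb.

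Single genes of the list showed the same course. Mrto4 read 8.15, 8.26 and 8.14 in 3F on days 3, 5 and 8, and 9.40 and 9.25, 9.57 and 9.38, and 9.22 and 9.24 in 4F. On day 12 it read 8.63 in 3F and 8.45 in 4F. Dkc1, the pseudouridine synthase dyskerin, chosen after its values were seen, read 8.41, 8.25, 7.78 and 9.41 in 3F. In 4F it read 9.50 and 9.68, 9.72 and 9.75, 9.51 and 9.59, and then 8.92 on day 12. Both genes thus lay above 3F by about 1 log2 unit or more on days 3 to 8 and below it on day 12. The mean level of the 51 genes was 8.58, 8.46 and 8.17 in 3F on days 3, 5 and 8, 9.13 to 9.46 on the 6 numbered 4F arrays, 8.74 in 3F on day 12 and 8.45 in 4F on day 12. GFP cells fell from 8.87 on day 3 to 7.89 on day 12, and day 0 cells stood at 9.24. On day 12 only 12 of the 51 genes were higher in 4F, with a median of -0.37, and none passed 2-fold in either direction. A test of the change, day 12 against the mean of days 3, 5 and 8, was added after these values were seen. In it 27 of the 51 genes changed downward and 0 upward, against 2.14% and 1.04% of all genes (634 genes called, 3.18%, of which 207 up and 427 down; 1625 with the replicate number as a block, and 0, with 2622 at an unadjusted p under 0.05, when the spread came from the 4F and 3F arrays alone). Dkc1 changed by -1.97 (SE 0.18, adjusted p = 7.6e-05) and the polymerase I subunit Polr1b, also chosen after its values were seen, by -2.0 (SE 0.34, adjusted p = 0.0062). Because the day 12 arrays are the only unnumbered pair, this change and the change of array set cannot be told apart.

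The E-box that c-Myc binds has the letters CACGTG, which read the same on both strands, and the promoters of 46 of these 51 genes were in the RefSeq table (GRCm38.p6, 250 bases before to 50 after each start, 54 windows). CACGTG occurred in 11 of the 54 windows (20.4%), against 1581 of 19177 windows of all genes (8.24%), 12.0% of windows of genes higher and 8.53% of windows of genes lower over all days. Of the 11 nucleolar genes with a match, 8 were higher over days 3 to 8 (median 0.74), and of the 35 without one, 34 (median 0.90). For 3 genes the match lay before the start. Among the 15 largest rises and 15 largest falls above, 13 and 7 genes had a promoter in the table, 2 and 0 held CACGTG, and none held it before the start. A stretch is therefore shown for a pair of nucleolar genes and 3 lysosomal genes, chosen after their values were seen, to show where the letters stand in both kinds of promoters. Sequences run 5′ to 3′ on the gene's strand, with CACGTG in capitals. Nop2 (chr6:125131763-125131882, plus strand), a methyltransferase of ribosomal RNA, and Imp4 (chr1:34439648-34439773, plus strand), a processing factor, follow.

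Nop2: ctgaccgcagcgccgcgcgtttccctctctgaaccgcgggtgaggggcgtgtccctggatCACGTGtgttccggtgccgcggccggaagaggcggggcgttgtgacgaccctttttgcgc
Imp4: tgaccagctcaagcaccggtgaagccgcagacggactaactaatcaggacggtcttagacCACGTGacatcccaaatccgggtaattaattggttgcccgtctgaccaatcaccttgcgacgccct

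The match starts 60 bases before the start in Nop2 and 121 in Imp4. Nop2 differed by 0.83 over days 3 to 8 (adjusted p = 0.0043) and by -0.46 on day 12, and Imp4 by 0.44 (adjusted p = 0.0066) and -0.92. A match is a description of letters, not evidence of binding.

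Other genes of growth followed the nucleolar list over days 3 to 8 to varying degree. Of 38 measured genes of mitochondrial ribosomes and gene expression, 30 were higher over days 3 to 8 (median 0.57), of 30 aminoacyl-tRNA synthetases 17 (median 0.40), of 36 genes of nucleotide, one-carbon and polyamine synthesis 20 (median 0.40), of 25 of the respiratory chain 11 (median 0.30), of 24 translation factors and chaperones 11 (median 0.33), and of 15 of RNA polymerase III 5 (median 0.26). The share of all genes called higher was 7.49%, and none of these lists had a member called lower. Without the 3F array of day 5 the counts were 7, 2, 6, 0, 3 and 2 in the same order. C1qbp, a mitochondrial matrix protein, led the mitochondrial list over all days (1.02, SE 0.21, adjusted p = 0.027), from 8.88, 8.69, 8.46 and 9.17 in 3F to 9.55 to 10.32 on the numbered 4F arrays and 9.30 on day 12. Among synthesis genes, Shmt1 (1.24, SE 0.27, adjusted p = 0.029) and Mthfd1 (1.05, SE 0.24, adjusted p = 0.034), of one-carbon metabolism, Phgdh (1.16, SE 0.21, adjusted p = 0.018), the first enzyme of serine synthesis, and Gart (0.97, SE 0.23, adjusted p = 0.039), of purine synthesis, were higher over all days. On day 12 Phgdh still differed by 1.12, while Shmt1 (-0.03), Mthfd1 (-0.08) and Gart (-0.01) read nearly the same in both arms. Of 13 amino acid transporters 3 were higher and 1 lower over all days, where 3.43% and 5.8% of all genes were. Without the 3F array of day 5, 0 of the 24 genes of the wider amino acid list were called over all days. Slc1a5, which carries glutamine, was higher (1.06, SE 0.12, adjusted p = 0.008; 8.23 to 8.38 in 3F and 8.90 to 9.62 in 4F), and Slc7a11, which carries cystine, lower (-0.88, SE 0.16, adjusted p = 0.018).

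Genes of cytosolic ribosomal proteins differed by smaller amounts, which were much alike on all 4 days. Of 29 measured genes, 13 were higher over all days (3.43% of all genes) and 10 over days 3 to 8 (7.49% of all genes), with a median of 0.30 in both, and 0 lower. The medians were 0.35, 0.32 and 0.27 on days 3, 5 and 8 and 0.37 on day 12, when 28 of 29 genes were higher in 4F. Rps3, of the small subunit, read 10.94, 11.03, 10.96 and 11.13 in 3F, and 11.36 to 11.73 on the 7 arrays of 4F (0.52, SE 0.07, adjusted p = 0.0092). Rpl14, of the large subunit, differed by 0.80 (SE 0.17, adjusted p = 0.028). In the test of the change between days 3 to 8 and day 12, 0 of 29 were called (median change 0.06). Near-identical copies of these genes can share signal. The size of the difference depended on the scaling. After quantile normalization 21 of the 29 were higher over all days (median 0.48) and 19 over days 3 to 8 (median 0.49). Without the 3F array of day 5, 1 of the 29 was called in each fit, and without all replicate 1 or all replicate 2 arrays 2 and 16 were called over days 3 to 8.

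Small nucleolar RNA symbols were grouped after their values were seen. Of 51 measured, 15 were higher over all days (3.43% of all genes) and 23 over days 3 to 8 (7.49% of all genes). On day 3 they made up 6 of the 40 genes called higher (0.201% of all genes), and 0 were lower in any of these fits. No counts with single arrays left out were made for this group. On day 12, 28 of 51 were higher, with a median of 0.03. Snord22 read 6.24, 6.48, 6.80 and 6.40 in 3F and 7.20 to 8.06 in 4F, with no overlap between the arms.

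Genes of DNA replication were higher in 4F over days 3 to 8. Of 36 replication genes, 30 were higher over days 3 to 8 (7.49% of all genes; median 0.65) and 6 over all days (3.43% of all genes). Of 32 mitosis genes the counts were 8 (median 0.30) and 3, and of 17 cyclins, kinases and E2F factors 3 and 0. The replication count over days 3 to 8 was 6 (and 0 over all days) without the 3F array of day 5 and 15 without all replicate 1 arrays, and the mitosis count was 0 and 1. Pold2, a subunit of DNA polymerase delta, read 8.04, 7.95, 7.88 and 8.39 in 3F, and 8.94 and 8.66, 9.41 and 9.01, 9.13 and 9.09, and 8.71 in 4F (all days 0.93, SE 0.15, adjusted p = 0.015). The licensing factor Cdt1 (0.84, SE 0.19, adjusted p = 0.034), Pola2 (0.70, SE 0.17, adjusted p = 0.04) and Pold1 (0.64, SE 0.16, adjusted p = 0.044) were also called. The mean level of the 36 genes was 8.04, 8.05 and 7.75 in 3F and 8.42 to 8.77 on the numbered 4F arrays, but 8.41 in 3F and 8.11 in 4F on day 12. On that day 5 of 36 were higher in 4F (median -0.30). GFP cells fell from 7.94 on day 3 to 6.86 on day 12, so both arms lay above them. Among 23 inhibitors of cyclin-dependent kinases and targets of p53, 1 was higher and 1 lower over all days, near the 3.43% and 5.8% of all genes. The locus of p16 and p19 (Cdkn2a) was higher (0.66, SE 0.17, adjusted p = 0.048), and its difference widened from 0.20 on day 3 to 1.43 on day 12. Cdkn2c was lower (-0.73, SE 0.15, adjusted p = 0.026).

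**Figure D3:**
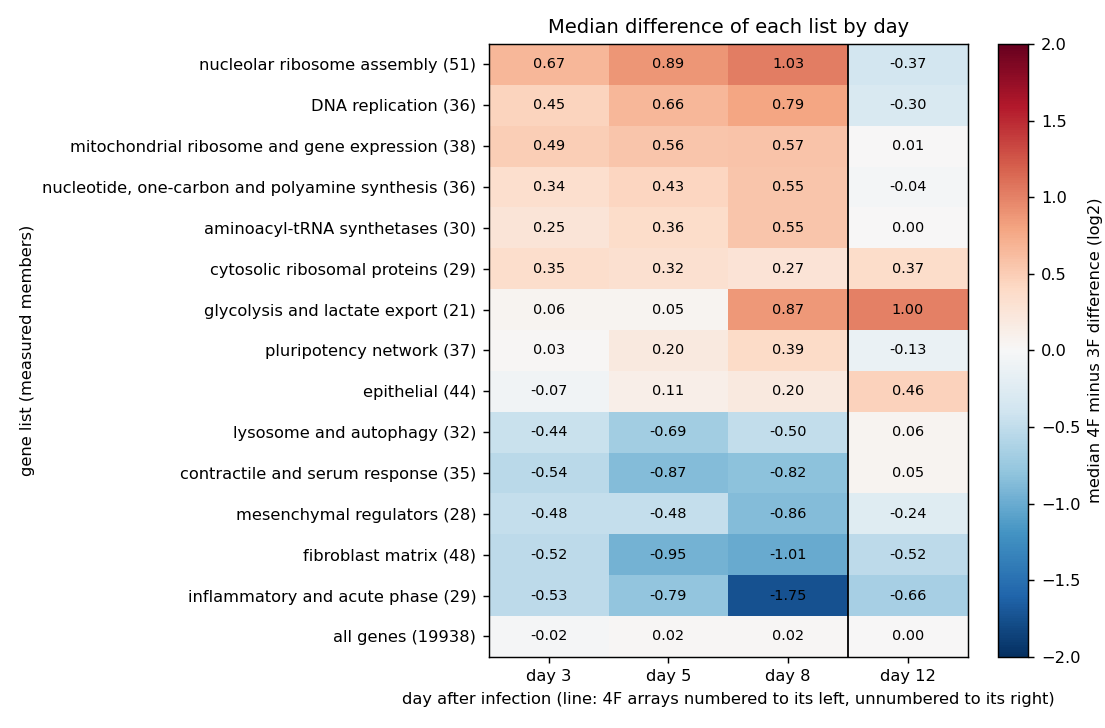
Median 4F minus 3F difference (colour and printed value, log2) of 14 gene lists and of all genes (rows, with the number of measured genes) on days 3, 5, 8 and 12 (columns). Nucleolar and replication genes have medians above 0 on days 3, 5 and 8 and below 0 on day 12, matrix genes lie below 0 on all days, and glycolysis turns from 0.05 on day 5 to 0.87 on day 8 and 1.00 on day 12.

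Of the genes of glycolysis and lactate export, most calls fell on day 8. Of 21 genes, 1 was higher on day 3, 1 on day 5 and 15 on day 8, and 0 were lower. Over all genes 40 (0.201%), 283 (1.42%) and 873 (4.38%) were higher on these days and 14 (0.0702%), 493 (2.47%) and 919 (4.61%) lower. The medians were 0.06, 0.05 and 0.87, and on day 12 the median was 1.00, with 20 of 21 genes higher and 11 past 2-fold, where 0.717% of all genes were. Slc16a3, an exporter of lactate, read 6.80, 6.66, 6.79 and 8.75 in 3F. In 4F it read 7.42 and 6.73, 7.13 and 7.13, 10.53 and 10.31, and 10.48, so the arms lay together until day 5 and 3.63 apart on day 8. The other lactate carrier, Slc16a1, was already 0.96 higher on day 3 and was called over all days (0.95, SE 0.11, adjusted p = 0.0074). Pdk1, which holds pyruvate back from the mitochondrion, differed by 0.92 on day 3, 0.48 on day 5 and 2.19 on day 8 (all days 1.28, SE 0.24, adjusted p = 0.019). Aldoc, named above, which differed by 1.53 on day 3 and 1.30 on day 8, and Hk2 (0.45, SE 0.09, adjusted p = 0.025) completed the 4 genes called over all days. The count over all days was 0 without the 3F array of day 5 and 1 with the array set as a random block.

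The change of the difference from day 3 to day 8 was called for 5 genes (0.0251%), 4 upward (0.0201%) and 1 downward (0.00502%). Bnip3, a mitochondrial protein induced at low oxygen, read 7.46, 7.21, 7.58 and 8.46 in 3F, and 7.58 and 7.43, 7.13 and 7.19, 9.84 and 10.09, and 10.91 in 4F (change 2.34, SE 0.27, adjusted p = 0.0046). Its difference was 0.05 on day 3, -0.05 on day 5, 2.39 on day 8 and 2.45 on day 12. Pfkl, the liver form of phosphofructokinase, rose from 0.24 on day 3 to 2.12 on day 8 (change 1.87, SE 0.19, adjusted p = 0.0013), and Gys1, glycogen synthase, from -0.12 to 1.00 (change 1.13, SE 0.18, adjusted p = 0.049). Ndufa4l2, a mitochondrial protein also induced at low oxygen, had the largest change (3.21, SE 0.41, adjusted p = 0.0083), with 5.68 to 5.96 on the 4F arrays of days 3 and 5, 8.32 and 9.31 on day 8 and 9.51 on day 12. Fabp2, an intestinal fatty acid carrier, changed by -1.13 (SE 0.17, adjusted p = 0.049) at signals of 4.65 to 5.93, near the bottom of the scale. With the replicate number as a block 41 genes were called, and with the spread of the 4F and 3F arrays alone 0, so that all 5 calls were lost (1008 at an unadjusted p under 0.05).

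Of 14 hypoxia genes, the oxygen-regulated transcription factors Hif1a (-0.74, SE 0.13, adjusted p = 0.018) and Epas1 (-1.11, SE 0.21, adjusted p = 0.02), were lower in 4F over all days (5.8% of all genes), and no member was higher. Neither was called over all days without the 3F array of day 5 or with the array set as a random block. On day 8, 3 were higher and 1 lower, where 4.38% and 4.61% of all genes were. On day 12, 5 were past 2-fold higher and 1 past 2-fold lower, where 0.717% and 1.74% of all genes were. The glucose transporter Slc2a1, chosen after its values were seen, read 8.85, 8.56, 9.0 and 10.49 in 3F and 8.43 to 9.05 on the 4F arrays of days 3 and 5, then 10.36, 11.04 and 11.91. The mean level of the 21 glycolysis genes rose in both arms, from 8.85 on day 3 to 9.46 on day 12 in 3F and from 9.05 and 9.06 to 10.43 in 4F, while GFP cells stayed at 8.70 to 8.92.

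Many genes of the fibroblast matrix were lower in 4F. Of 48 measured genes, 26 were lower over all days (5.8% of all genes) and 27 over days 3 to 8 (8.41% of all genes), with 0 higher and a median of -0.85 in both fits. By single days 0 were lower on day 3, 16 on day 5 and 27 on day 8, where 0.0702%, 2.47% and 4.61% of all genes were. The median of the list was -0.52 on day 3, -0.95 on day 5 and -1.01 on day 8. By role, 8 of 16 collagens, 15 of 22 glycoproteins and proteoglycans (median -1.19 over days 3 to 8) and 3 of 10 genes of cross-linking and folding were lower over all days. The mean level of the list was 9.14, 9.35, 9.46 and 9.04 in 3F and 8.12 to 8.70 on the 7 arrays of 4F. GFP cells stood at 10.12 to 10.86, above both arms. Dcn, the proteoglycan decorin, chosen after its values were seen, read 10.84, 11.84, 12.22 and 12.11 in 3F and 9.39 to 10.44 in 4F (-1.88, SE 0.25, adjusted p = 0.0093). Col8a1, a short-chain collagen, differed by -1.91 (SE 0.24, adjusted p = 0.0092), Col1a1 by -0.99 (adjusted p = 0.016) and Fn1, fibronectin, by -0.97. The 3F array of day 5 carried much of the count, with 1 gene called over all days and 9 over days 3 to 8 without it, and 11 over days 3 to 8 without all replicate 1 arrays. On day 12, 38 of 48 genes were below 0 or at 0 (median -0.52), 14 past 2-fold lower and 2 past 2-fold higher, where 1.74% and 0.717% of all genes were. The prolyl hydroxylase P4ha1 (1.49) and the lysyl hydroxylase Plod1 (1.18), which modify collagen chains, were the 2 higher ones.

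Mesenchymal regulators and adhesion genes were also lower in 4F. Of 28 measured, 13 were lower over all days and 14 over days 3 to 8, against 5.8% and 8.41% of all genes, and 0 higher. Without the 3F array of day 5 the counts were 2 and 6. Cdh11, a cadherin of mesenchymal cells, read 11.29, 10.87, 10.66 and 10.36 in 3F, and 10.05 and 10.44, 9.12 and 9.64, 8.90 and 8.55, and 8.08 in 4F (-1.65, SE 0.20, adjusted p = 0.0084). On day 12 its difference was -2.28. The matrix protease Mmp3 differed by -1.43 (adjusted p = 0.022), the adhesion molecule Ncam1 by -1.15 (adjusted p = 0.0061) and N-cadherin, Cdh2, by -1.10 (adjusted p = 0.016). In the TGF-beta and BMP list 10 of 28 genes were lower over all days, 13 over days 3 to 8 and 0 higher. The BMP inhibitor Grem1 differed by -1.97 (SE 0.25, adjusted p = 0.0092), activin's subunit Inhba by -1.90 (adjusted p = 0.026), Id4 by -1.21 (adjusted p = 0.013) and the latency protein Ltbp1 by -1.10 (adjusted p = 0.014). When the 3F array of day 5 was omitted, no member of this list was called over all days and 2 over days 3 to 8.

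Of 35 measured contractile genes, 18 were lower over days 3 to 8 (8.41% of all genes; median -0.75) and 6 over all days (5.8% of all genes), and 0 higher. Myl9, the light chain of non-muscle and smooth muscle myosin, fell in both arms, from 11.16 on day 3 to 10.00, 9.73 and 7.94 in 3F, and from 9.20 and 10.16 to 7.97 and 7.72, 7.93 and 7.51, and 7.46 in 4F (-1.60, SE 0.28, adjusted p = 0.016). The smooth muscle actin Acta2 differed by -1.02 (adjusted p = 0.024), zyxin, Zyx, by -0.80 (adjusted p = 0.0093) and the actin linker Actn1 by -0.79 (adjusted p = 0.031). The mean level of the list was 9.06, 8.59, 8.75 and 7.83 in 3F and 7.93 in 4F on day 12, when 20 of 35 genes were higher in 4F (median 0.05). Omitting the 3F array of day 5 left 1 gene over days 3 to 8, and omitting all replicate 1 arrays left 3.

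Inflammatory genes were lower in 4F, with a wide gap on day 8. Of 29 measured, 12 were lower over all days and over days 3 to 8 (median -1.12 in both), 15 on day 8 (median -1.75), and 0 higher. The shares of all genes called lower were 5.8%, 8.41% and 4.61%. Serpina3n, an acute-phase protease inhibitor, read 7.74, 7.76, 8.60 and 8.24 in 3F and 5.81 to 7.22 in 4F (-1.82, SE 0.31, adjusted p = 0.016). The chemokine Ccl8 differed by -1.90 (SE 0.42, adjusted p = 0.032). The 3F array of day 8 stood high for some of these genes. The cytokine Il6 read 9.85 on the 3F array of day 8 and 5.27 to 6.04 on the other 3F arrays, against 4.66 to 5.73 in 4F (day 8 -4.70, SE 0.80, adjusted p = 0.0027). The immediate early gene Nr4a3 read 9.35 on that array, 5.21 to 5.40 on the other 3F arrays and 7.19 on 4F replicate 2 of day 8. No inflammatory gene was called in either fit without the 3F array of day 5. Interferon genes gave no call in 30 over all days or days 3 to 8, at a median of -0.51 over all days. Their medians over days 3 to 8 were -0.83 against replicate 1 and -0.04 against replicate 2. Ifit1, an interferon-induced protein, read 5.43, 6.37, 8.26 and 8.63 in 3F and 5.21 and 7.22 in the 4F replicates of day 8 (all days -1.23, SE 0.49, adjusted p = 0.17).

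Genes of the lysosome were lower in 4F on days 3 to 8 and near the 3F level on day 12. Of 32 measured genes, 21 were lower over days 3 to 8 (8.41% of all genes; median -0.52), 11 over all days (5.8% of all genes), and 0 higher. Hexa, a hexosaminidase that breaks down gangliosides, read 10.01, 10.05, 10.20 and 9.80 in 3F, and 8.61 and 8.99, 8.43 and 8.86, 8.58 and 9.03, and 9.72 in 4F (days 3 to 8 -1.34, SE 0.15, adjusted p = 0.004). The arms were more than 1 log2 unit apart on days 3, 5 and 8 and close together on day 12, with a difference of -0.09. The protease Ctsl, cathepsin L, read 11.40, 11.20, 10.85 and 10.76 in 3F and 9.66 to 10.69 on the numbered 4F arrays, but 10.84 in 4F on day 12 (days 3 to 8 -1.12, SE 0.16, adjusted p = 0.0063). Cathepsin D, Ctsd, differed by -1.41 (SE 0.29, adjusted p = 0.02) over days 3 to 8 and -0.21 on day 12, and cathepsin B, Ctsb, by -1.19 and 0.12. Lamp1, a membrane protein of lysosomes, differed by -0.80 (SE 0.09, adjusted p = 0.004) and -0.37. On day 12, 17 of 32 genes were higher (median 0.06), and 6 changed upward and 0 downward between days 3 to 8 and day 12, where 1.04% and 2.14% of all genes did. The mean level of the list in 4F was 8.31 to 8.64 on the numbered arrays and 8.99 on day 12, against 8.92 to 9.09 in 3F. Omitting the 3F array of day 5 left 6 over days 3 to 8 and 0 over all days, and omitting all replicate 1 arrays left 11 over days 3 to 8.

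The promoters of lysosomal genes are shown because they carry the same letters as those of nucleolar genes although the differences run the other way. CACGTG occurred in 10 of 34 windows (29.4%) of 26 genes with a promoter in the table, and in 2 of 36 windows (5.56%) of matrix genes. The palindrome is also read by other factors, among them TFEB of the lysosomal program and the USF proteins. Of the 10 lysosomal genes with a match 8 were lower over days 3 to 8 (median -0.59), and of the 16 without one 9 (median -0.49). The stretches are from Ctsd (chr7:142387860-142387985, minus strand), Ctsl (chr13:64370691-64370770, minus strand) and Lamp1 (chr8:13159086-13159160, plus strand).

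Ctsd: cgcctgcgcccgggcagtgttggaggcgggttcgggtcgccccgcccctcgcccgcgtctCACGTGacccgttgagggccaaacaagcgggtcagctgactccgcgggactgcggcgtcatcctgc
Ctsl: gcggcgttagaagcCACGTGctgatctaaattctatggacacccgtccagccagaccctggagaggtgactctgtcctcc
Lamp1: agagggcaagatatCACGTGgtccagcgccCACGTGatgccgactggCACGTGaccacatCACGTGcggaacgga

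Lamp1 holds 4 copies within 75 bases, and Ctsd and Ctsl hold 1 each in the stretch shown. The letters thus occurred before the start of genes that were higher and of genes that were lower.

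Of 22 genes known to be lowered by c-Myc in other cells, 12 were lower over days 3 to 8 (8.41% of all genes; median -0.60), 7 over all days (5.8% of all genes), and 0 higher. The matrix protease inhibitor Timp2 differed by -1.33 (SE 0.18, adjusted p = 0.0095), the secreted angiogenesis inhibitor Thbs1 by -1.31 (adjusted p = 0.017), the growth factor receptor Pdgfrb by -1.22 (adjusted p = 0.028) and the ligand Gas6 by -0.94 (adjusted p = 0.025). On day 12 the median was 0.05, and 5 genes were past 2-fold higher (0.717% of all genes). Txnip, an inhibitor of thioredoxin and of glucose uptake, read 8.32, 8.48, 9.32 and 9.24 in 3F, 7.71 to 8.88 on the numbered 4F arrays and 11.75 in 4F on day 12, the largest difference of the list that day at 2.51. Without the 3F array of day 5 the counts of the list were 2 over days 3 to 8 and 0 over all days.

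Pluripotency genes gave 0 calls in 37 over all days, and 4 changed downward between days 3 to 8 and day 12 (2.14% of all genes). On day 8 there were 9 higher and 2 lower, where 4.38% and 4.61% of all genes were. The lower count lay near its share. Tdgf1, the Nodal coreceptor Cripto, read 5.55, 5.56, 6.87 and 10.53 in 3F, and 5.40 and 5.41, 5.89 and 6.37, 8.32 and 10.36, and 10.81 in 4F (day 8 2.47, SE 0.64, adjusted p = 0.027). The 4F replicates of day 8 lay far apart, and on day 12 the difference was 0.28. Nanog and Nr0b1 were chosen after their values were seen. Nanog read 6.65 in 3F and 7.15 and 8.48 in 4F on day 8, and 9.32 and 9.48 on day 12. Nr0b1, a nuclear receptor of the network, read 5.74 in 3F and 6.81 and 8.69 in 4F on day 8, but 9.12 in 3F and 7.16 in 4F on day 12. The median of the 37 genes was 0.39 on day 8 and -0.13 on day 12, when 12 were higher in 4F. Of 44 epithelial genes 2 were higher over all days, a share near the 3.43% of all genes. They were Pkp1 (0.36, adjusted p = 0.019) and Grhl1 (0.27, adjusted p = 0.014). On day 12, 36 of 44 were higher in 4F (median 0.46; 49.6% of all genes), 6 past 2-fold higher and 1 past 2-fold lower, where 0.717% and 1.74% of all genes were. The keratin Krt8, chosen after its values were seen, read 9.50 in 3F and 10.66 in 4F that day, and 7.59 in 3F and 7.55 and 8.89 in 4F on day 8.

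In lists of other cell types few genes were called over all days, where 3.43% of all genes were higher and 5.8% lower. There were 0 calls in germ cell, muscle, macrophage, endothelial, red blood cell and cartilage markers. Serpinb5 was higher among keratinocyte markers (0.40, adjusted p = 0.017), Tfap2c among trophectoderm markers (0.49, adjusted p = 0.03) and Lpl lower among adipocyte markers (-1.25, SE 0.18, adjusted p = 0.012). Of 19 neural markers Bex1 was higher and Nefl (-1.31, adjusted p = 0.014), Gap43 (-1.50) and Nefm (-0.66) lower. Of 35 chromatin genes, 14 were higher and 1 lower over days 3 to 8 (7.49% and 8.41% of all genes), and 6 and 0 without the 3F array of day 5. On day 12, 10 of 35 were higher in 4F (median -0.17). Ruvbl2, an ATPase of remodelling complexes, was the higher one over all days (0.82, SE 0.10, adjusted p = 0.0092). Trrap, a c-Myc cofactor, was the lower one over all days (-0.43), but its other row was at 0.04.

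By single days, with the spread taken from all 31 arrays, 54 genes (0.271%) were called on day 3, 776 (3.89%) on day 5 and 1792 (8.99%) on day 8. With the replicate number as a block the counts were 703, 2316 and 3315. Fitted on the 4F and 3F arrays alone they were 0, 0 and 151, with 1797 and 3002 genes at an unadjusted p under 0.05 on days 3 and 5. The counts were 2 to 104, 72 to 524 and 1189 to 1945 when 1 array was left out. Only 4F arrays were left out here, because 3F has 1 array a day, so these ranges do not show how far the counts rest on the 3F arrays. On day 3 Entpd1, a surface enzyme that degrades ATP, read 7.65 in 3F and 5.98 and 6.24 in 4F (-1.54, SE 0.13, adjusted p = 0.00015). Igfbp3 (-2.35), the transcription factor Hey2 (-2.21), Itga4 (-2.12) and the Wnt inhibitor Dkk2 (-1.76) were the other called genes with the largest falls on day 3. Slc35f2 (1.45), the long noncoding RNA Dancr (1.45), Snora52 (1.37), Taf1d (1.32) and Snord35a (1.30) were the called genes with the largest rises on day 3. Some genes not called that day differed by more, among them Bex1 (2.08) and Gpr50 (-2.63). Dancr read 6.85 in 3F and 8.68 and 7.92 in 4F on day 3, and on day 12 it read 7.06 and 6.51. On day 8 Slc16a3, Ndufa4l2, Tfrc, Tdgf1 and Bnip3 rose most, by 2.39 to 3.63, and Il6, Cxcl5, Mfap5, Nr4a3 and Ccl8 had the lowest values, from -4.70 to -3.11.

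Day 12 stood apart from the earlier days for the genes that were higher in 4F. Of the 1494 genes higher over days 3 to 8, 651 (43.6%) were above 0 on day 12 and 842 (56.4%) below, with a median of -0.06 against 0.51 before. Over all genes 49.6% were above 0. Of the 1677 lower genes, 1177 (70.2%) were below 0 on day 12, with a median of -0.21 against -0.63. Between the arrays of day 12, 490 genes (2.46%) differed by at least 2-fold, 143 higher (0.717%) and 347 lower (1.74%), with no replicate check. With the spread borrowed from the other groups, a test added after the data were seen, 465 genes (2.33%) were called on day 12, 184 higher and 281 lower, and with that of the 4F and 3F arrays alone 0 (2214 at an unadjusted p under 0.05). Of the genes higher before, 15 were past 2-fold higher and 15 past 2-fold lower, and of those lower before, 158 lower and 12 higher.

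**Figure D4:**
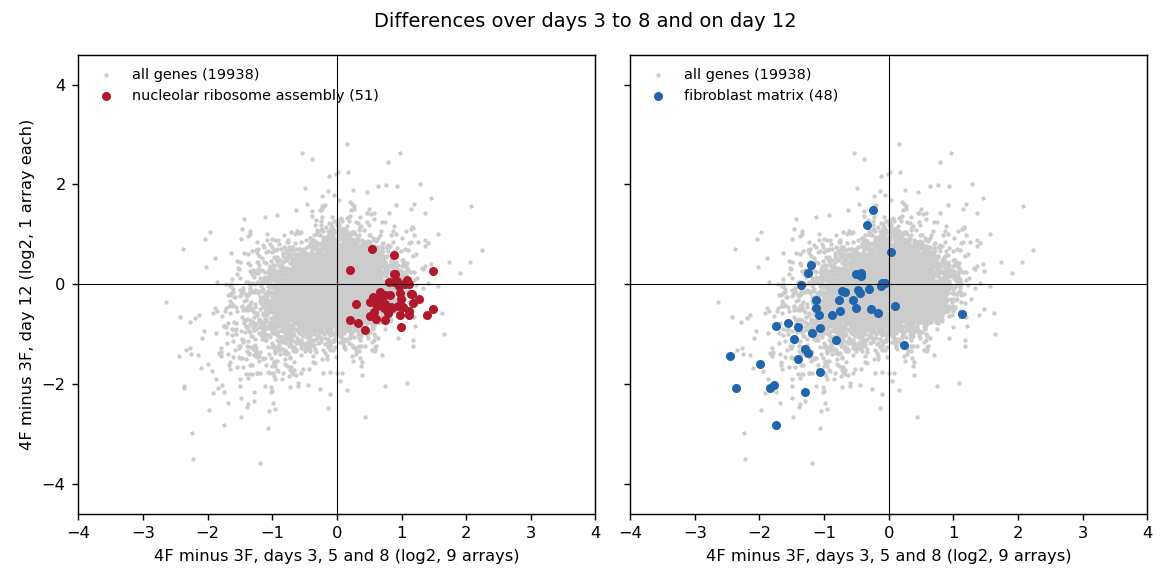
Fitted 4F minus 3F difference over days 3 to 8 (horizontal axis, log2) against the difference between the single arrays of day 12 (vertical axis, log2) for 19938 genes, with genes of nucleolar ribosome assembly and of the fibroblast matrix marked. The nucleolar genes lie to the right, with a median of 0.85, but mostly below 0 on the vertical axis (median -0.37), and the matrix genes lie mostly below 0 on both (medians -0.85 and -0.52).

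Cd36, a fatty acid transporter, read 5.08 in 3F and 7.89 in 4F on day 12, and 5.28 to 6.45 on the numbered 4F arrays. Ndufa4l2 (2.63), the steroid reductase Akr1c14 (2.62; 5.31 and 7.93), Txnip (2.51), Bnip3 (2.45), Usp17ld (2.25), Cd68 (2.24) and the glycogen phosphorylase Pygl (2.21; 5.95 and 8.16) followed. Usp17ld ranged from 5.56 to 9.82 over the 11 arrays of both arms. Cd68, a lysosomal protein of macrophages, read 6.93 and 9.17 on day 12 and 8.01 on 4F replicate 2 of day 8. Of the other listed macrophage markers, Adgre1 and Ptprc stayed near the bottom of the scale, and Csf1r differed by 0.62 on day 12. In the other direction, Agtr2, an angiotensin receptor, read 9.63 in 3F and 6.04 in 4F (-3.59), followed by Cxcl5 (-3.51), Ccn3 (-2.99), Mmp3 (-2.89), Lum (-2.83), Cyp2b23 (-2.67; 9.30 and 6.64), the Wnt modulator Sfrp2 (-2.66) and the hydroxysteroid dehydrogenase Akr1c18 (-2.54). Akr1c18 read 11.76 and 9.22 on day 12 and 12.47 in 3F against 11.79 and 12.50 in 4F on day 3.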

How the data were processed

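Whole-transcript arrays of mouse embryonic fibroblasts were analysed from the deposited series table, whose values are log2 signals by range (per the labels, RNA was biotinylated with a sense-target kit). How the authors normalized these log2 values is not stated in any source used here. Column medians ran from 6.042 to 6.169. Of 28853 rows, 21789 had 1 gene symbol, 1621 several and 5443 none, by the platform annotation. A gene with several rows (999 genes) is represented by its brightest row, by the mean of 31 arrays.

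Differences (4F minus 3F) were fitted with limma 3.58.1 in R 4.3.3, with day as a term, over all days (11 arrays, 6 residual degrees of freedom) and over days 3 to 8 (9 arrays, 5), and by day from group means over 31 arrays (12). P-values were adjusted by Benjamini-Hochberg over 19938 genes, with 0.05 as threshold, and scripts were tested on simulated data. The number of arrays limits the precision. Day 12 (1 array an arm) was described at 2-fold, with a test on the other groups' spread added later.

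Genes named were the delivered factors and Myc family, the 15 largest called differences in each direction with 1 sign on all days, up to 4 called members of each list in each direction (or the largest difference where none was called), the 8 largest of day 12, the called changes from day 3 to day 8 and the 5 largest called on each day. The members and lists were chosen with earlier results of these data known. Same-numbered 4F arrays deviated together (r 0.37, 0.43 and 0.47 between days), taken from the labels' replicate numbers. A replicate block, other normalizations, row rules and omitted arrays were tried. Promoters came from RefSeq (GRCm38.p6), with 15614 genes matched.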

Additional observations from a re-analysis of the deposited data

Results flagged for a closer look

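Changes of the 4F minus 3F difference between days were called by limma for some named genes. Between day 3 and day 8 it changed by 2.34 for Bnip3, 3.21 for Ndufa4l2, 1.87 for Pfkl, 1.13 for Gys1 and -1.13 for Fabp2. Between the mean of days 3, 5 and 8 and day 12, a contrast added after the data were seen, it changed upward for Akr1c14 (3.16), Txnip (2.89), Cd36 (2.65), Pygl (2.23), Bnip3 (1.66), Ndufa4l2 (1.66), Ctsl (1.20), Sycp3 (1.16), Mxd1 (1.02) and Entpd1 (1.00). It changed downward for Cyp2b23 (-3.11), Dancr (-1.71), Slc35f2 (-1.68), Shmt1 (-1.58), Mthfd1 (-1.42), Mrto4 (-1.34), Gart (-1.23), Nhp2 (-1.12) and Dctd (-1.06). Each day 12 value rests on 1 array in each arm, and the step to day 12 is also the step from numbered to unnumbered 4F arrays, so that day and array set cannot be told apart.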

How the results depend on the processing

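Most named genes kept their sign under the alternatives run. With the array set as a replicate block, which leaves day 12 as the only comparison of the arms, the count over all days was 62, 3 of 120 called named genes kept their call, and 8 changed sign: Ctsb 0.12, Ctsl 0.08, Gart -0.01, Mrto4 -0.19, Mthfd1 -0.08, Nhp2 -0.00, Pola2 -0.07 and Shmt1 -0.03. With the array set as a random block, added after the data were seen, 579 genes were called over all days and 2012 over days 3 to 8, and 52 of the 120 named calls were kept. Without either day 12 array the difference of Txnip was -0.39 in place of 0.19 (-0.39 to 0.44 over omitted arrays), and 3171 genes were called. Leaving out arrays gave 0 to 3171 genes over all days, 434 to 3760 over days 3 to 8, 2 to 104 on day 3, 72 to 524 on day 5, 1189 to 1945 on day 8, 3 to 33 for the change from day 3 to day 8 and 505 to 852 for the change to day 12. For the single days and the changes only 4F arrays of days 3, 5 and 8 were left out. Those ranges therefore do not show how far the counts rest on the 3F and day 12 arrays. With the replicate block the daily counts were 703, 2316 and 3315, and the changes 41 and 1625. On the 4F and 3F arrays alone they were 0, 0 and 151, and 0 for both changes (1008 and 2622 at an unadjusted p under 0.05). After quantile normalization day 3 gave 37, the change to day 8 gave 15, and day 5 gave 903 with 48.5% higher in place of 36.5%. With dim genes left out day 3 gave 28 and the change to day 8 gave 9. Quantile normalization, centring, the mean of rows and the moderated variance with a trend kept 115, 119, 116 and 116 of the 120 calls, leaving out the 3F array of day 5 kept 8, and leaving out all replicate 1 arrays kept 0.

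The main limit is that 3F has 1 array a day. Its days stand in for replicates, and over days 3 to 8 the arm and the array set cannot be told apart.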

Other observations

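Germ cell markers had 2 members that changed upward between days 3 to 8 and day 12, where 1.04% of all genes did. These were Mael, by 0.94, and Sycp3 of the meiotic chromosome axis, by 1.16, while 0 of 15 were called over all days.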
